A study of Mus musculus with 14 samples.

Results

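The T-box genes encode transcription factors that share the T-box, a DNA-binding domain, and 10 of them were examined here for H3K27me3, a histone H3 mark in which lysine 27 carries 3 methyl groups. The genes were Tbx1, Tbx2, Tbx3, Tbx4, Tbx5, Tbx15, Tbx18, Tbx20, Tbx21 and Eomes. A peak of the deposited H3K27me3 list was taken as a T-box peak when it overlapped the GENCODE gene record of a member or the 5 kb on either side of it, without regard to its signal. This gave 92 of the 23668 listed peaks, and each of the 10 genes held at least 2.

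The mark was mapped by ChIP-seq, which sequences the DNA that an antibody to the mark pulls down, in primary hippocampal neurons of WT mice, to compare cultures in which the long noncoding RNA NeuID had been knocked down with control cultures. Gapmers, antisense oligomers that lead to cleavage of the RNA they pair with, were directed at NeuID in one group and at no target in the other, and reached the neurons in lipid nanoparticles. There were 6 ChIP libraries labelled as control and 6 as NeuID knockdown, with 1 input library per condition. The neurons came from CD1 mouse embryos of mixed-sex litters, so a culture pools animals, and it can hold cells other than neurons. NeuID RNA was not measured by this assay, and the knockdown was therefore not checked here.

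The values used here are the mean of each group at a peak, as the log2 of normalized reads, and no value per library was analysed. The authors' own test of each peak was not used. No SD, n or p-value therefore accompanies a difference, and every comparison below is a description of 2 means. The overall mean of a peak equalled a weighted sum of both group means with a weight of 0.545 on the control, the ratio given by 6 control to 5 knockdown libraries. The means thus appear to rest on 11 libraries where 12 are labelled, and which knockdown library is missing is not shown by the values. The study's account of this assay gives yet another number of libraries per group. The depth of the libraries is unknown. A difference is always the knockdown minus the control mean on the log2 scale, and a peak was counted as lower or higher when it reached 1, a 2-fold difference. In a bulk measurement, fewer marked cells and less mark per cell cannot be told apart.

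T-box factors pattern the embryo, chiefly the heart, limbs, pharyngeal arches and mesoderm, and a few act in immune cells or in neural progenitors. In cells that do not use them their genes are classic targets of Polycomb repressive complex 2, whose subunit EZH2 places H3K27me3 over long stretches around CpG-rich starts. By sequence the family falls into subgroups: Tbx1, Tbx15, Tbx18 and Tbx20 form one, Tbx2, Tbx3, Tbx4 and Tbx5 another, and Eomes and Tbx21 belong with Tbr1 in another. Tbx2 neighbours Tbx4, and Tbx3 neighbours Tbx5, as linked pairs.

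The DNA just before the starts of Tbx3, Tbx18, Tbx20, Tbx21 and Eomes is shown because these genes differ there in CpG content. The same stretch of the other members is not shown and was not compared. Also, 9 of the 10 gene-record starts lay under a peak, Tbx18 being the exception. Each line gives 250 bases of the mouse assembly GRCm38.p6 read in the direction of the gene, ending at the base before the start, with CpG dinucleotides in capitals. The start is that of RefSeq for Eomes, Tbx18, Tbx20 and Tbx21, and that of GENCODE for Tbx3.
Tbx3 start, chr5:119670419-119670668, plus strand: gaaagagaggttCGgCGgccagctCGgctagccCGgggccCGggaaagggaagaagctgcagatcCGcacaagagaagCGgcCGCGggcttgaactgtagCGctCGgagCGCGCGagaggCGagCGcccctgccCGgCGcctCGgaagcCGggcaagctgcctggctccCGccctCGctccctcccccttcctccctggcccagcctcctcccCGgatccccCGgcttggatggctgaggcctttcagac
Tbx18 start, chr9:87731261-87731510, minus strand: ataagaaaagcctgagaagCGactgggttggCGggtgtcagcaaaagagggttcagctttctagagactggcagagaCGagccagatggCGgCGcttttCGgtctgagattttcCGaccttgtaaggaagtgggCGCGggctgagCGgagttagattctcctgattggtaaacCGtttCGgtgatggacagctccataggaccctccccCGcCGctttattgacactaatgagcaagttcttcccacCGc
Tbx20 start, chr9:24774304-24774553, minus strand: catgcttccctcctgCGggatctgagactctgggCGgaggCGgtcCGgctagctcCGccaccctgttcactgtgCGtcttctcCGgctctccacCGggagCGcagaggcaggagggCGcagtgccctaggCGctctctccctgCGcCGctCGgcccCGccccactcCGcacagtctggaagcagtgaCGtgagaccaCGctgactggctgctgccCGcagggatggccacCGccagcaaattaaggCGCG
Tbx21 start, chr11:97115332-97115581, minus strand: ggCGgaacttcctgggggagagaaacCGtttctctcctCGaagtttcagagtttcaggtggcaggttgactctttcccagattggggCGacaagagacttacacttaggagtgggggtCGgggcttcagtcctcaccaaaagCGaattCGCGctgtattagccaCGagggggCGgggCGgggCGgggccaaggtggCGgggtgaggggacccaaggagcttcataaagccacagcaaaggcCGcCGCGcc
Eomes start, chr9:118477939-118478188, plus strand: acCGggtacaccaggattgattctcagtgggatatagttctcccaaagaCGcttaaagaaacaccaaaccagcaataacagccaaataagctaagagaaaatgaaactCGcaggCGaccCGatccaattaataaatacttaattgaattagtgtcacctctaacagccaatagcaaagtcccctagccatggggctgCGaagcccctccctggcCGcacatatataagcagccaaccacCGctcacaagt
The stretch before Tbx3 holds 24 CpG dinucleotides, that before Tbx20 holds 22, that before Tbx21 holds 16, that before Tbx18 holds 15 and that before Eomes holds 8. Relative to the number that its C and G content would give by chance, the Tbx18 stretch stands at 0.84, Tbx3 at 0.76, Tbx20 at 0.75, Tbx21 at 0.72 and Eomes at 0.62. The Tbx3, Tbx20, Tbx21 and Eomes stretches lie inside a listed peak. The Tbx18 stretch does not: it falls in a gap between the end of one peak at base 87730740 and the start of the next at base 87732251 of chromosome 9.

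Against the list as a whole, T-box genes carried wide and strong H3K27me3 peaks. Their 92 peaks covered 132.562 kb, which is 0.389% of the listed peaks but 0.950% of the listed bases. The median T-box peak was 998 bp wide, against 426 bp over all peaks, and the range ran from 202 to 5000 bp. Of the T-box peaks 24 (26.1%) were at least 2 kb wide, compared with 2.93% of all peaks. The median of the overall mean was 20.8 normalized reads at the T-box genes and 7.60 over the whole list. An overall log2 mean of 4 or more was found for 55 T-box peaks (59.8%), against 14.1% of all peaks. Peaks also stood close together: of 82 adjacent pairs within a gene, 48 were separated by less than 500 bp.

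The number of peaks differed widely between the genes. Tbx15 held 18, Tbx3 13, Tbx4 and Tbx18 11 each, and Tbx2 10. Eomes had 9, Tbx5 8, Tbx20 7, Tbx1 3 and Tbx21 2. The 3 Tbx1 peaks covered 10729 bp, whereas the 2 Tbx21 peaks covered 3158 bp, the least of the 10 genes. Of the protein-coding genes with a listed peak, 2.84% had 10 or more, as did 5 of the 10 members.

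**Figure D1:**
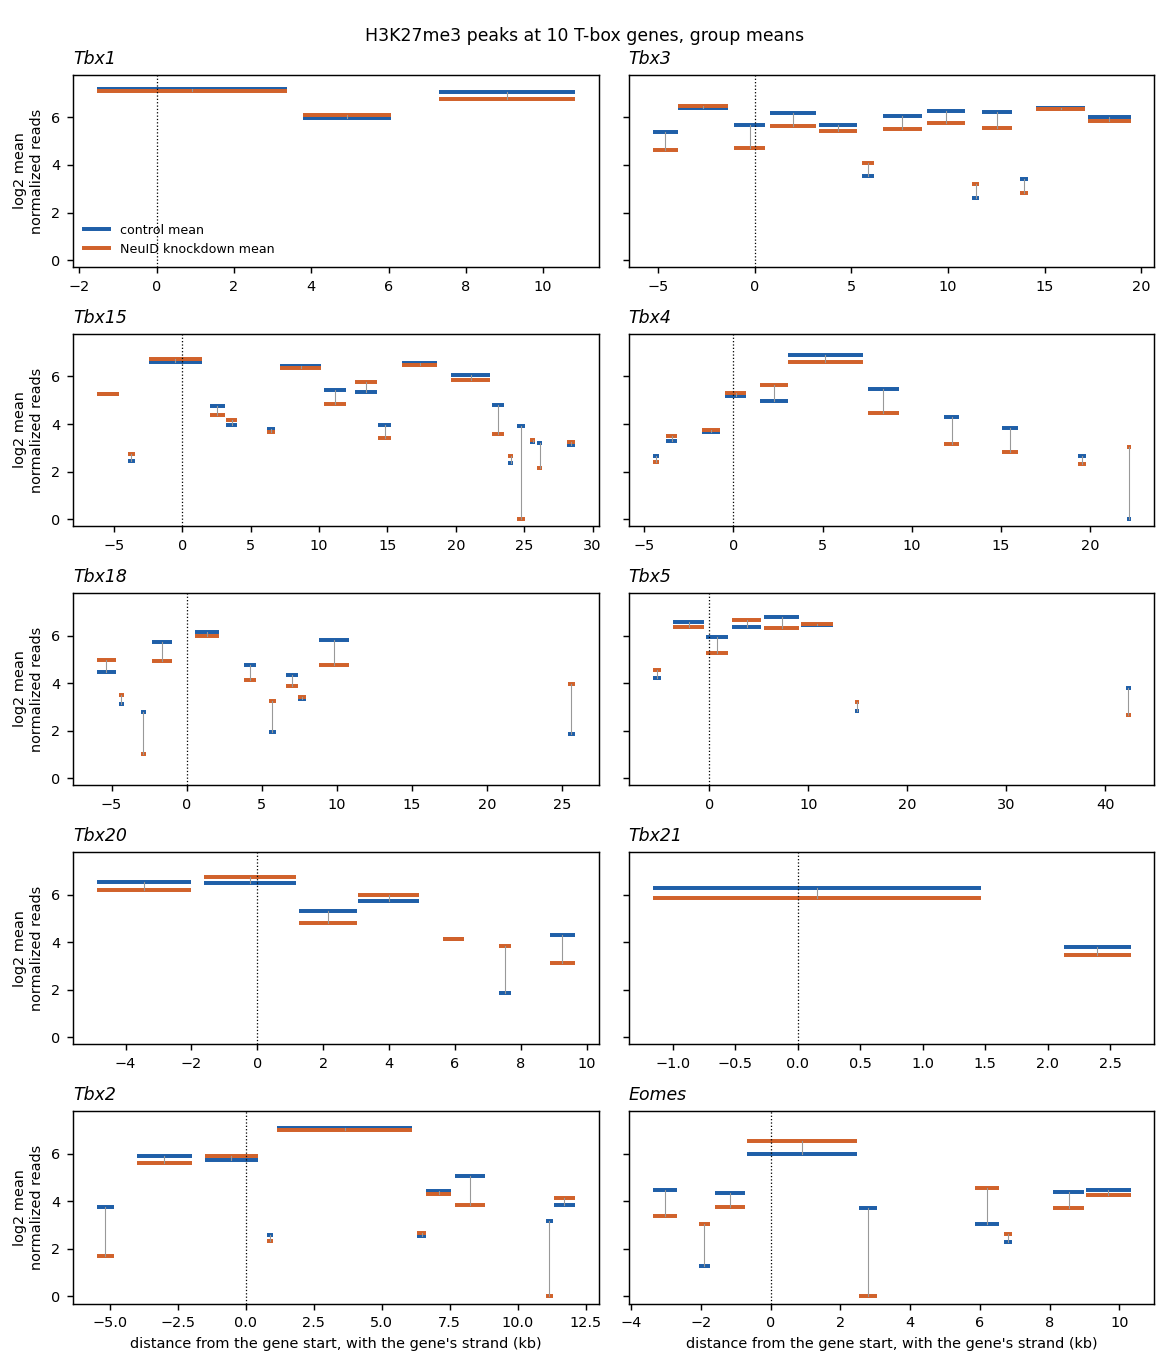
H3K27me3 peaks at each of the 10 T-box genes, drawn by distance from the gene start in kb (horizontal axis, positive into the gene, dotted line at the start) and by the log2 mean of normalized reads (vertical axis), with a blue bar for the control mean and an orange bar for the NeuID knockdown mean of the same peak and a grey line joining them. The bars lie farthest apart at short weak peaks, such as those listed at 0 in 1 group at Tbx2, Tbx4, Tbx15 and Eomes, and peaks of 2 kb or more differ by at most 1.02.

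Summed over all 92 peaks, the signal at the T-box genes was 3651 normalized reads in the control and 3243 after knockdown. The knockdown sum was thus 88.8% of the control sum, a log2 ratio of -0.17, while the sum over all listed peaks was 97.1% of the control, a log2 ratio of -0.04. The sum was lower after knockdown at 9 of the 10 genes, Eomes being the exception, and the Tbx20 ratio turned to 0.03 when both groups were scaled to equal sums over the list. The sign for Eomes changed under other settings, so no direction can be given for Tbx20 or Eomes. With no value per library, it is not known whether the difference exceeds the spread between replicates.

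Per kb of covered length, the control level ran from 20.5 normalized reads at Eomes to 32.4 at Tbx3. Tbx1 (31.8) followed Tbx3, then Tbx21 (29.0), Tbx20 (28.5), Tbx18 (28.3) and Tbx5 (28.1). Tbx2 (26.5), Tbx15 (25.4) and Tbx4 (23.1) lay lower. After knockdown the level per kb was 29.6 at Tbx1, 28.3 at Tbx20, 25.7 at Tbx3 and 25.5 at Tbx5. Tbx18 and Tbx15 both stood at 23.4, Tbx2 at 22.9, Tbx21 and Eomes both at 21.8 and Tbx4 at 20.6. Which neighbours in either order differ beyond the replicate spread could not be determined.

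**Figure D2:**
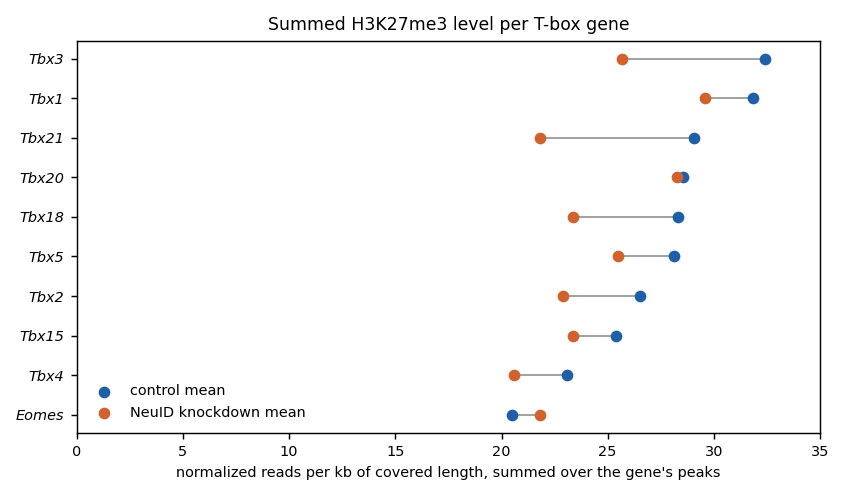
Summed H3K27me3 level at each T-box gene in normalized reads per kb of covered length (horizontal axis from 0), with a blue point for the control mean and an orange point for the NeuID knockdown mean. Tbx3 goes from 32.4 to 25.7 and Tbx21 from 29.0 to 21.8, Tbx20 stays at 28.5 and 28.3, and Eomes is the gene whose knockdown point lies to the right of its control point.

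By log2 ratio of the sums, Tbx21 was lowest at -0.41, followed by Tbx3 at -0.34, Tbx18 at -0.28 and Tbx2 at -0.21. Tbx4 stood at -0.16, Tbx5 at -0.14, Tbx15 at -0.12, Tbx1 at -0.11 and Tbx20 at -0.01, and Eomes alone was above 0 at 0.09, where scaling to equal sums would place Tbx20 above 0 too. For scale, 741 protein-coding genes had at least 3158 bp of listed peaks, the covered length of Tbx21, a comparison chosen after the data had been seen. Their median ratio was -0.09, with quartiles of -0.26 and 0.11, and 63.0% of them were below 0. All 10 T-box genes lay between the 5th and 95th percentiles of those genes, -0.58 and 0.46. Tbx21, Tbx3 and Tbx18 lay below the lower quartile and no T-box gene lay above the upper one.

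Peak by peak, 14 of the 92 T-box peaks were lower by at least 1 after knockdown and 6 were higher. These are 15.2% and 6.52%, and over all listed peaks the same size rule was met by 20.6% in the lower and 20.4% in the higher direction. Both shares were below those of the list, but weak peaks, which differ most, make up less of the T-box set, so the shares were also taken by strength. Among peaks whose overall log2 mean was 4 or more, 4 of 55 T-box peaks (7.27%) were lower and 0 were higher, beside 9.12% and 5.02% of all such peaks. Where that mean was 5 or more, 1 of 41 T-box peaks was lower and 0 were higher, beside 3.01% and 1.25%.

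More T-box peaks were lower than higher after knockdown, by any amount as well as past the size rule, although at a size limit of 1.5 the counts were equal, 5 and 5 (13% of all peaks in each direction). A negative difference was found for 56 T-box peaks (60.9%), against 50.8% of all peaks. From an overall mean of 4 upward the shares were 70.9% of T-box peaks and 57.4% of all peaks, and from 5 upward they were 70.7% and 59.3%. The median difference of T-box peaks with both means above 0 was -0.17, against -0.02 over the list. From an overall mean of 4 upward it was -0.22, against -0.11.

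The group means of weak peaks lay farther apart than those of strong peaks. Below an overall mean of 3, 4 of 15 T-box peaks were lower (26.7%, against 23.4% of the list) and 3 were higher (20%, against 26.9%). Between 3 and 4, 6 of 22 were lower (27.3%, against 21.1%) and 3 were higher (13.6%, against 16.2%). Between 4 and 5, 3 of 14 were lower (21.4%, against 13.3%) and 0 were higher, against 7.62%. Stronger T-box peaks were seldom called, like those of the list. From 5 to 6, 1 of 21 was lower (4.76%, against 4.19%) and 0 were higher, against 1.91%. At 6 or more 0 of 20 were called, against 1.14% lower and 0.190% higher in the list. At like strength, then, the share of lower T-box peaks was above that of the list in 4 of 5 ranges and the share of higher ones below it in all 5, on counts of at most 6 peaks and without a test. The SD of the difference across T-box peaks with both means above 0 was 0.95 below 3 and 0.28 at 6 or more, and over all peaks it was 1.32 and 0.35. Over the same peaks, median differences at the T-box genes were 0.21 below 3, 0.09 from 3 to 4 and -0.42 from 4 to 5. From 5 to 6 the T-box median was -0.51, and at 6 or more it was -0.07. The corresponding medians over all peaks were 0.06, -0.06, -0.13, -0.09 and -0.11. The T-box median was thus above that of the list below 4 and at 6 or more, and below it from 4 to 6. Peaks of 1 gene weigh on the range from 5 to 6, where Tbx3 held more peaks than any other member. Its peaks there lie along 1 locus and were all negative, from -0.97 to -0.17. A median of that range without Tbx3 was not taken.

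**Figure D3:**
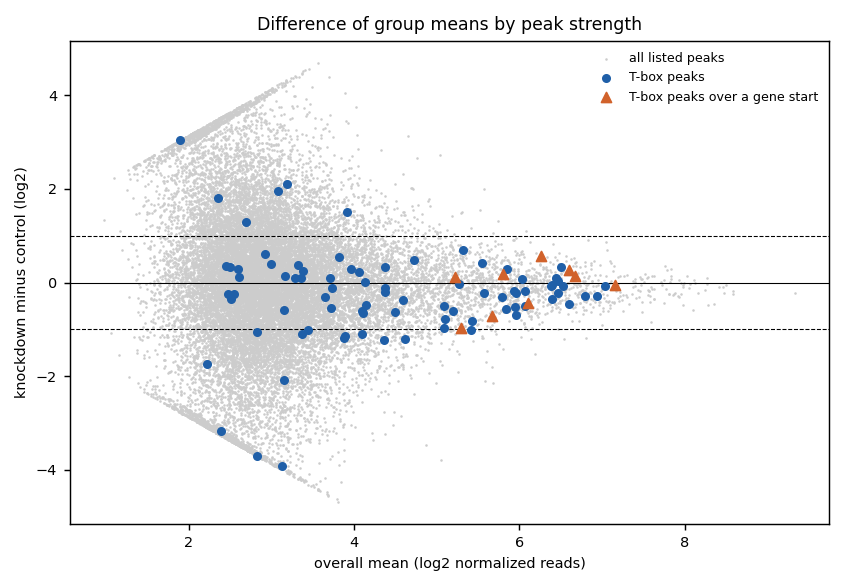
Difference of the group means of each peak (knockdown minus control, log2, vertical axis) against its overall log2 mean (horizontal axis), with all listed peaks in grey, T-box peaks in blue and T-box peaks over a gene start as orange triangles; dashed lines mark a difference of 1 in each direction. Both the grey and the blue points close in on 0 to the right, 19 of the 20 T-box peaks on or beyond the lines have an overall mean below 5, and the 9 triangles lie within them.

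Of the 20 T-box peaks past the size rule, 19 were narrower than 1.2 kb and 19 had an overall mean below 5. The exception to both was the second Tbx18 peak. None of the called peaks lay at Tbx1, Tbx3 or Tbx21. Among T-box peaks of at least 2 kb the differences ran from -1.02 to 0.57 with a median of -0.13, and 1 of 24 was lower (4.17%) and 0 higher. Peaks of that width in the whole list had a median of -0.11, with 2.74% lower and 0.577% higher, so the T-box values were near the background. Neighbouring peaks often parted: 34 of 82 adjacent pairs had differences of the same sign, and of 6 adjacent pairs in which both peaks were called, 2 differed in the same direction.

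Peaks over the gene start, here that of the gene record, were found at 9 of the 10 genes, Tbx18 being the gene without one. Some peaks counted as other, at Tbx18 and elsewhere, cover the start of another annotated transcript of the gene. Together these start peaks showed almost equal sums in both groups, 672 normalized reads in the control and 667 after knockdown, a log2 ratio of -0.01. The differences ran from -0.97 at Tbx3 to 0.57 at Eomes with a median of 0.11, and 4 of the 9 were negative. The other 32 T-box peaks with overall means of 5 or more had a median difference of -0.22, a log2 ratio of sums of -0.21, and 78.1% were negative. In the whole list, peaks of that strength had a median of -0.07 over 449 protein-coding starts and -0.11 elsewhere. The log2 ratios of sums there were -0.08 and -0.12, and 57.5% and 60.1% of the peaks were negative. The median of the T-box start peaks thus lay above, and that of their other strong peaks below, the corresponding median of the list. The start peaks of Tbx3, Tbx5 and Tbx21 lay below it, at -0.97, -0.70 and -0.43.

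Away from the starts, T-box peaks lay in introns (34), over coding exons (23), upstream (19), downstream (6) or over a non-coding exon (1). The ratio of sums was below 0 in each of these places: -0.25 for introns, -0.18 for coding exons, -0.22 upstream, -0.19 downstream and -0.58 for the single non-coding exon. Introns held 8 of the 14 lower and 3 of the 6 higher peaks. These are 8 and 3 of 34 intronic peaks, beside 20.6% lower and 20.4% higher over all listed peaks. Intronic peaks were also short, with a median width of 602 bp against 1872 bp over coding exons.

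In the subgroup of Tbx2, Tbx3, Tbx4 and Tbx5 the pattern differed from gene to gene. Tbx3, a repressor used in limb, mammary gland and cardiac conduction tissue, was the most fully covered member. Its 13 peaks took up 86.7% of the window and 10 of them were lower after knockdown, none by as much as 1. The start peak (chr5:119669619-119671204) had control and knockdown log2 means of 5.66 and 4.69, a difference of -0.97, or from 50.5 to 25.8 normalized reads. By contrast the widest peak, 2585 bp just upstream, was at 6.39 and 6.49, a difference of 0.10. Strong peaks over Tbx3 coding exons, a set of 5 picked out after their values were seen, had differences between -0.69 and -0.22. Both other positive peaks were short and intronic. Within the gene body alone the ratio of sums was -0.49. The peaks on either flank overlap the noncoding genes Tbx3os1 and Tbx3os2, and a ChIP peak has no strand that would separate them from Tbx3.

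Tbx5, needed for the forelimb and the heart, lies downstream of Tbx3 and carried a run of wide peaks over its first 13 kb. At its start (chr5:119832336-119834568) the log2 means were 5.95 and 5.25, a difference of -0.70. The widest peak, 3503 bp over coding exons, was at 6.78 and 6.33, a difference of -0.45. Its other 3 peaks of 3 kb or more had differences from -0.22 to 0.33. The called peak of Tbx5 was a 459 bp intronic one, 42094 bp from the start, at 3.77 in the control and 2.67 after knockdown.

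Tbx2, a repressor in heart, limb and eye development, had the widest of all T-box peaks, 5000 bp, which held 134 of its 351 normalized reads in the control. That peak (chr11:85833688-85838687) was at 7.06 and 6.98, a difference of -0.08. The start peak beside it was at 5.72 and 5.90. Around these level peaks stood 3 lower ones. A 619 bp peak 4861 bp upstream, which also overlaps the gene 2610027K06Rik, had log2 means of 3.77 and 1.70, or 13.7 and 3.25 normalized reads. A 1104 bp peak over coding sequence was at 5.05 and 3.84, a difference of -1.21. The last of them, downstream of the gene, was listed at 0 after knockdown.

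Tbx4, which acts in the hindlimb and lung, had a start peak at 5.17 in the control and 5.28 after knockdown. Its widest peak, 4195 bp over coding exons, was at 6.92 and 6.63. Farther into the gene the peaks grew weaker. There, an 833 bp peak at 4.30 and 3.16 and an 887 bp peak at 3.82 and 2.80 were both lower by more than 1. The last peak, of 202 bp, was the narrowest of all T-box peaks and was listed at 0 in the control.

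In the subgroup of Tbx1, Tbx15, Tbx18 and Tbx20, the first 2 had start peaks that were nearly level between the groups. Tbx1 acts in the pharyngeal arches and lies in the region deleted in DiGeorge syndrome. Its start peak (chr16:18587286-18592225), 4940 bp wide, had log2 means of 7.17 and 7.13, the highest of any T-box peak. The next peak into the gene was at 5.99 and 6.08, and the one at the far end was at 7.06 and 6.78. No Tbx1 peak differed by more than 0.28 in either direction.

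Tbx15, a regulator of skeletal and adipose development, had the most peaks and the longest covered length, 24402 bp. Its start peak (chr3:99237918-99241827), 3910 bp wide, was also its widest and stood at 6.61 and 6.75. Differences past the size rule were grouped at the far end of the run of peaks, more than 22 kb into the gene. A 904 bp peak there was at 4.80 and 3.58, and a 382 bp peak was at 3.21 and 2.15. Between them lay a peak that was listed at 0 after knockdown. Upstream peaks of Tbx15 also lie in Wars2, and several intronic ones overlap Gm43120.

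Tbx18, a factor of the epicardium, ureter and sinoatrial node, was the gene whose gene-record start was not covered. The nearest peak began 520 bp into the gene, covered the start of another annotated Tbx18 transcript and was at 6.14 and 5.97. The next, 991 bp upstream, was not called. Its widest peak (chr9:87720435-87722439), 2005 bp in an intron, was at 5.79 and 4.77, or 55.5 and 27.3 normalized reads. This difference of -1.02 was the only one past the size rule among T-box peaks of 2 kb or more. Of the other 3 called peaks, 374 to 447 bp wide, 1 was lower and 2 were higher. The upstream one was at 2.77 and 1.02. A peak over coding sequence was at 1.87 and 3.98, and an intronic one was at 1.96 and 3.26. In reads these are 3.64 against 15.8 and 3.90 against 9.61.

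Tbx20, a cardiac factor, had nearly equal sums of 314 and 311 normalized reads. Its start peak was at 6.47 and 6.73, a difference of 0.26. The widest peak, 2850 bp upstream, was at 6.54 and 6.19, a difference of -0.35. Inside the gene a 747 bp intronic peak was lower, at 4.30 and 3.11. Its neighbour of 346 bp was higher, at 1.88 and 3.83.

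Eomes and Tbx21 form the remaining subgroup. Tbx21, also called T-bet, directs the Th1 fate of T cells, and here it had 2 peaks, both lower by less than 1. The start peak (chr11:97113867-97116493), 2627 bp wide, was at 6.28 and 5.85, or 77.9 and 57.9 normalized reads. The second, an intronic peak, was at 3.78 and 3.47. Since the start peak held most of the reads, the ratio for Tbx21 is in effect that of 1 peak.

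Eomes, also called Tbr2, marks the intermediate progenitors of the developing cortex and hippocampus and also acts in lymphocytes. Its strongest and widest peak was the start peak (chr9:118477545-118480685), 3141 bp, at 5.97 in the control and 6.54 after knockdown. In reads this is 62.7 of 177 for the gene in the control and 92.8 of 188 after knockdown, and the difference of 0.57 was the highest of the 9 start peaks. The rest of the locus was mixed. An upstream peak was lower, at 4.49 and 3.40, and its neighbour of 332 bp was higher, at 1.26 and 3.06. A 674 bp peak over coding sequence was higher, at 3.04 and 4.55. The intronic peak just behind the start peak was listed at 0 after knockdown. Without the start peak the ratio of sums at Eomes was -0.26, and within the gene body alone it was 0.48. The positive value for Eomes therefore depends on that peak.

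A group mean of 0 on the log2 scale stands for at most 1 normalized read, and 4 T-box peaks had one, so no fold is given for them. Their DNA is shown because they are the most one-sided T-box entries of the list. The whole peak, or its central 300 bases, is given on the plus strand of GRCm38.p6 with CpG dinucleotides in capitals.
Tbx2 peak 9, chr11:85843592-85843849, plus strand: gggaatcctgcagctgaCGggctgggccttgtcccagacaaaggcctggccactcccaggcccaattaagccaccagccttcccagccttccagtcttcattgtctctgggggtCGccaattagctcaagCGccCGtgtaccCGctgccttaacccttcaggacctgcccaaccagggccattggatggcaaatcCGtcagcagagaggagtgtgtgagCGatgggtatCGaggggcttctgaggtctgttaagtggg
Tbx15 peak 15, chr3:99264980-99265279, plus strand: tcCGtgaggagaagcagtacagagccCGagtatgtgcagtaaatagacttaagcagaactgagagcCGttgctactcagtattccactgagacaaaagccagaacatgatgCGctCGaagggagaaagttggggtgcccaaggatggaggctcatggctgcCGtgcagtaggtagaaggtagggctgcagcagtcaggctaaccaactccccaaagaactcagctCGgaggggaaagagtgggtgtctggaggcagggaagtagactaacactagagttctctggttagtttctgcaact
Eomes peak 5, chr9:118480853-118481152, plus strand: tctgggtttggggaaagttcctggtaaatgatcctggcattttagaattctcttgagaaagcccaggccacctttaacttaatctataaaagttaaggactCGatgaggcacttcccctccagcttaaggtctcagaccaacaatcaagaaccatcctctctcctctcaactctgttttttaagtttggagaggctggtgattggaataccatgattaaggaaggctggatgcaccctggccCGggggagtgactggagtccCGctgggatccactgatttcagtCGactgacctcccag
Tbx4 peak 11, chr11:85908489-85908690, plus strand: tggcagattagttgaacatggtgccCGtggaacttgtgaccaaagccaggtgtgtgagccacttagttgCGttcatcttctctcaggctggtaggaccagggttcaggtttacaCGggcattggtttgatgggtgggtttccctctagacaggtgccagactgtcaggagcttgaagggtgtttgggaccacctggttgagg
These stretches, of 258, 300, 300 and 202 bases, hold 8, 7, 4 and 3 CpG dinucleotides in that order. The downstream Tbx2 peak was at a log2 mean of 3.17 in the control, or 8.99 normalized reads, and at 0 after knockdown. The intronic Tbx15 peak was at 3.92, or 15.1 reads, and at 0. The intronic Eomes peak was at 3.70, or 13.0 reads, and at 0. The intronic Tbx4 peak was the reverse case, at 0 in the control and 3.04, or 8.21 reads, after knockdown. Such entries were not rare in the list, where 3.35% of peaks were at 0 after knockdown and 3.28% in the control. None of the 4 peaks overlaps an annotated untranslated region of its gene.

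T-box peaks were richer in CpG than the list as a whole, but not among strong peaks. The median ratio of observed to expected CpG was 0.35 in T-box peaks and 0.22 over all peaks, and 12 T-box peaks (13.0%) reached 0.6, against 8.57% of all. Where the overall mean was 5 or more the order was the other way, 0.47 for T-box peaks and 0.53 for all peaks. Under an overall mean of 4 the values were 0.22 and 0.20. T-box peaks that were lower or higher by at least 1 had medians of 0.25 and 0.28, and the 72 others had 0.41. GC content was alike, with medians of 49.5% and 49.2%.

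**Figure D4:**
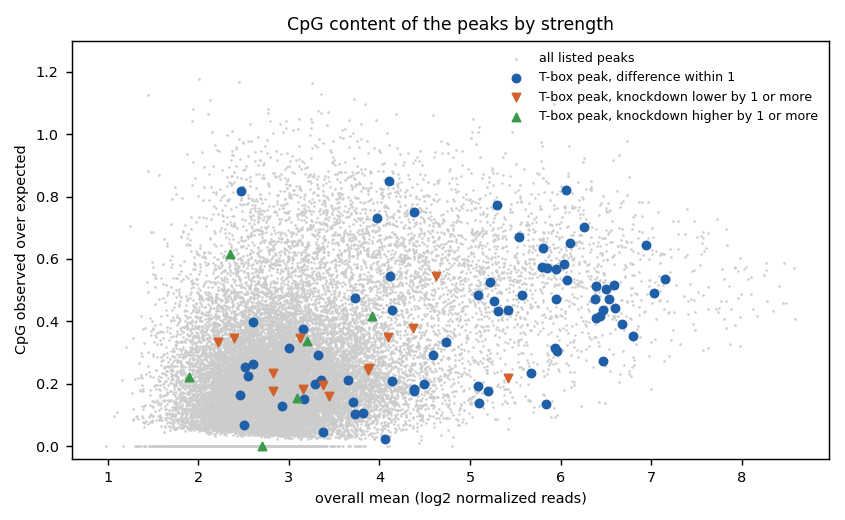
Observed over expected CpG of each peak (vertical axis) against its overall log2 mean (horizontal axis), with all listed peaks in grey and T-box peaks by call: blue circles within a difference of 1, orange triangles lower and green triangles higher after knockdown. The called T-box peaks sit at the left, with median CpG ratios of 0.25 and 0.28, and the stronger uncalled ones reach higher ratios.

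The motif AGGTGTGA, which T-box factors bind, was searched on both strands (TCACACCT on the other), with no other motif. It was found in 4 T-box peaks (4.35%), against 2.90% of all peaks. Per 10 kb of peak there were 0.302 matches at the T-box genes and 0.515 over the list, so the matches were fewer per length although the share of peaks was larger. The 4 peaks lay at Tbx4, Eomes and, for 2 of them, Tbx15. In RefSeq promoter windows of 300 bases the motif was present in 1.28% of all 32851 and in 0 of the 7 windows of the 6 members that had one.

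T-box genes outside the 10 were counted by the same rule. Of 7 further members of the family, T had 5 peaks, Tbr1 4, Tbx10 3 and Mga 1, and no peak was listed at Tbx6, Tbx19 or Tbx22. Their 13 peaks included 2 lower (15.4%) and 1 higher (7.69%), against 20.6% and 20.4% of all peaks. The log2 ratio of their sums was -0.50. Brachyury (T), with 46.6% of its window covered, had a larger covered share than 6 of the 10. Brachyury, the mesoderm factor that gave the family its name, stood at -0.57 with a start peak at 7.03 and 6.21. Tbr1, a factor of cortical and hippocampal glutamatergic neurons, stood at -0.53 without a peak over its start, on 57.6 and 40.0 normalized reads.

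Other developmental families were counted under the same rule. The Gata and Hand genes, some of which work with T-box factors in the heart, had 66 peaks, 8 lower (12.1%) and 2 higher (3.03%). Their median difference was -0.21 and the log2 ratio of their sums was -0.22. The Irx genes had 42 peaks, 3 lower (7.14%) and 2 higher (4.76%), with a median of -0.15 and a ratio of -0.17. All these shares were below the 20.6% and 20.4% of the whole list, where weak peaks make up a larger part. Among peaks with an overall log2 mean of 4 or more, 9.09% of Gata and Hand peaks were lower and 0 higher. For the Irx genes 0 were lower and 3.85% higher. All listed peaks of that strength had 9.12% lower and 5.02% higher, so the Gata and Hand lower share was near the background. The T-box median of -0.19 over all 92 peaks lay between those of these families. Among peaks of log2 mean 4 or more over all libraries, medians were -0.22 (T-box), -0.23 (Gata and Hand) and 0.02 (Irx). That strength was reached by 44 of 66 Gata and Hand and 26 of 42 Irx peaks, beside 55 T-box peaks. Median widths were alike too, 1016.5 bp (Gata and Hand), 1094 bp (Irx) and 998 bp (T-box). No difference between the families was tested.

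Peaks over gene starts were read against markers of the cells in the culture. None of 8 neuron markers, 5 astrocyte markers or 4 microglia markers had a listed peak over the start, whereas 1 of 5 oligodendrocyte lineage markers did, Olig2, at 6.60 and 6.41. The markers were not free of listed peaks, however. By the window rule used for T-box peaks, 6 of the 8 neuron markers and 3 of the 5 oligodendrocyte lineage markers had one. So did 1 of the 5 astrocyte and 1 of the 4 microglia markers. The T-box start peaks, from 5.17 to 7.17 in the control, were in the range of Olig2. The part of a shifted cell makeup in the T-box values was not tested.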

How the data were processed

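H3K27me3 ChIP-seq libraries of primary hippocampal neurons were grouped by the sample titles into 6 control and 6 NeuID knockdown libraries, with 1 input per condition. The authors sequenced single-end reads, used bowtie2 to map them to mm10 (the assembly GRCm38) and MACS2 in its broad mode for peaks, and tested the groups in DiffBind through its DESeq2 option. Tool versions, normalization, the rule for merging peaks, removal of duplicates and subtraction of input are not given in the sources used here. Subtraction of input would weigh most on peaks with few reads. The deposited table lists, for each of 23668 peaks, the mean of normalized reads as a log2 value, for all libraries together and per group. It also holds the authors' own comparison (a fold, a p-value and an FDR per peak), which was not used. Other per-sample columns, of which there were 0, were left out. Depth per library is unknown, so no counting interval was computed.

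The difference of the 2 group log2 means was taken per peak, and normalized reads (2 to the log2 mean) were summed per gene, with a group at 0 entered as 1 read. Genes came from GENCODE M21 on GRCm38.p6, peaks within 5 kb of a gene being kept. All 23642 peaks on the 20 chromosomes lay inside the chromosome ends, and 26 were on scaffolds and had no sequence read. A peak was placed by the first that applied of gene start, coding exon, non-coding exon, intron, upstream and downstream. RefSeq promoter windows on the same assembly matched 6 of the 10 genes. Shares of all peaks past the same size rule are given as the background. Scripts were tested on simulated data. Python 3.11.15, numpy 2.4.6, pandas 2.3.3 and pysam 0.24.0 were used.

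The members, gene lists, limits and alternatives were chosen with earlier results of these data known. Peaks named with values were, for each gene, the start peak or the peak nearest the start, the widest peak and each peak at or beyond a difference of 1; others named are said to be so.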

Additional observations from a re-analysis of the deposited data

How the results depend on the processing

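The count of T-box peaks lower after knockdown was 14, and it was 5 at a size limit of 1.5 (13% of all peaks), 4 at a limit of 2 (8.61%) and 4 where the overall mean was 4 or more (9.12%). The count of higher peaks was 6, with 5 at a limit of 1.5 (13%), equal to the lower count there, 2 at a limit of 2 (8.45%) and 0 at overall means of 4 or more (5.02%). With both means above 0 the counts were 11 and 5 of 88 (18.5% and 18.4% of all peaks). In gene bodies alone they were 10 and 5 of 67 peaks, and with 10 kb on each side 17 and 6 of 108, both beside 20.6% and 20.4%. Centring on the median of all peaks left them at 14 and 6. The log2 ratio of sums over the 10 genes stayed between -0.13 and -0.18 under the alternatives that are ratios of sums. The 7 alternatives also include the median of the peaks' differences, which was -0.19. With 1 gene left out, the median difference of peaks with both means above 0 ran from -0.22 to -0.11, the latter without Tbx3. For 8 genes the sign held in all 7 alternatives, but not every alternative could change it. The settings for a listed 0 leave genes without one as they were, and the Tbx1 peaks are the same in every window. A kept sign therefore says nothing on the spread between replicates. The sign changed for Tbx20 in 4 of the alternatives (range -0.14 to 0.11) and for Eomes in 2 (range -0.26 to 0.48), so no direction can be given for either. No paired analysis was possible because only group means were used here, with no value per library, and leaving out single libraries was not possible for the same reason. Weak peaks limit every count, since a difference of 1 between small means can rest on few reads, and neither the depth nor the spread between libraries is known.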

Other observations

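The intervals between the linked T-box genes differed in their H3K27me3 outside the flanking peaks already counted as T-box peaks, which are left out here. The 147.943 kb between Tbx3 and Tbx5 held 21 further listed peaks covering 27.696 kb. The strongest had an overall log2 mean of 8.16, above that of any peak at the T-box genes themselves. Of these 21 peaks 3 were lower and 1 was higher by at least 1 after knockdown, beside 20.6% and 20.4% of all listed peaks. The log2 ratio of their sums was -0.21. Between Tbx2 and Tbx4, 44.473 kb apart, there was 1 further listed peak, of 0.56 kb, lower by 1.99 on the log2 scale and with an overall mean of 3.68. Among all listed peaks with an overall mean from 3 to 4, 21.1% were lower by at least 1.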
